A study of Mus musculus with 11 samples.

Results

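Auts2 and Galnt17 are neighbouring protein-coding genes on mouse chromosome 5, and the peaks of the transcription factors (TFs) Runx3 and Brn3a in their regulatory domains are described here. A regulatory domain ran from 5 kb upstream to 1 kb downstream of the transcription start site (TSS) and was extended on each side to the nearest such window of another protein-coding gene, by at most 1 Mb. A peak belonged to a domain when its centre lay in it, and a peak in both domains was counted once. In all, 50 of 25883 nuclear Runx3 peaks and 94 of 32887 nuclear Brn3a peaks were members. The pair of genes was selected, out of 21911 protein-coding genes, on the measured numbers of Runx3, Brn3a and co-bound peaks in these same lists, so those numbers are given as a description and were not tested.

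The data came from CUT&RUN, in which an antibody directs micrococcal nuclease to the chromatin it recognizes, on TrkC neurons of mouse dorsal root ganglia (DRG) at E12.5. All libraries shared 1 genotype, given in the labels as Runx3-BAC-GFP-CB6 transgenic mice, and the cells were isolated by FACS for the GFP of the BacE-GFP reporter, so the cells are those in which that transgene was active. There were 3 libraries with anti-Runx3, 4 with anti-Brn3a, 3 with anti-H3K27Ac and 1 with Normal Rabbit Serum. There was no untreated or mutant group. Each antibody's libraries had been merged into 1 consensus list of positions, without height or score, which kept peaks found in at least 2 libraries. The spread between libraries and the read depth are therefore unknown, and every interval and test below covers the counting of peaks alone. Over all protein-coding genes, 62.9% had a Runx3 and 57.5% a Brn3a peak in the domain. The domains of 4 genes that mark the labelled cells, 340 to 1715 kb long, all held peaks of both TFs, with 76 Runx3 and 231 Brn3a peaks at Runx3, 13 and 24 at Ntrk3 (the TrkC gene), 12 and 41 at Pou4f1 (the Brn3a gene) and 11 and 22 at Isl1.

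AUTS2 is a nuclear and cytoplasmic protein of developing neurons. In the nucleus it joins a variant of Polycomb repressive complex 1 that contains PCGF5 and, with casein kinase 2 and the acetyltransferase P300, is associated with active transcription, and in the cytoplasm it acts on the actin cytoskeleton and neurite outgrowth. Deletions at human AUTS2 cause a neurodevelopmental syndrome. GALNT17, formerly WBSCR17, belongs to the polypeptide N-acetylgalactosaminyltransferases, the Golgi enzymes that start mucin-type O-glycosylation. Runx3 binds a short site, here called RBS, and Brn3a, a POU-homeodomain protein, binds AT-rich sites summarized by the V$BRNF motif.

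The sequences below show what both factors' regions looked like at these genes. The RBS number of a peak was equal to the number of words TGCGGN and TGTGGN whose last base was C or T, on either strand, in 25883 of 25883 nuclear Runx3 peaks, and these words are in capitals, as is the Brn3 word TTAATGA on either strand. All are the plus strand of GRCm38 (RefSeq sequence), in introns of Auts2 or in intergenic DNA upstream of it. The first 5 are co-bound Runx3 peaks of at most 300 bp whose overlapping Brn3a peak had V$BRNF, taken in order of RBS number and then width.
Co-bound Runx3 peak, chr5:131833204-131833500, Auts2 intron 4: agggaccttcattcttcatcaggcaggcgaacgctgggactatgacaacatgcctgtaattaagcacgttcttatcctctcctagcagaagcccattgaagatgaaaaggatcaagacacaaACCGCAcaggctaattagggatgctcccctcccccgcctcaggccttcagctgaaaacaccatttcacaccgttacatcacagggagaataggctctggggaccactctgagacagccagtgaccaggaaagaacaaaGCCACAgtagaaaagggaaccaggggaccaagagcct
Co-bound Runx3 peak, chr5:132075172-132075434, Auts2 intron 2: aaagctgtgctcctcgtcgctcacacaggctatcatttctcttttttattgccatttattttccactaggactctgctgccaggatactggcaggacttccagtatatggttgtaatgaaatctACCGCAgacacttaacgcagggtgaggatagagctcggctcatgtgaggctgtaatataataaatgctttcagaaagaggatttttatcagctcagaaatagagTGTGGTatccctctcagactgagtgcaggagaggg
Co-bound Runx3 peak, chr5:131692811-131692957, Auts2 intron 5: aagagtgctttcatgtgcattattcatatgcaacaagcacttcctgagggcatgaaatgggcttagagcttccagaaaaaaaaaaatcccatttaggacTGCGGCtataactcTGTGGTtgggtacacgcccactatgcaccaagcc
Co-bound Runx3 peak, chr5:132587041-132587141, intergenic: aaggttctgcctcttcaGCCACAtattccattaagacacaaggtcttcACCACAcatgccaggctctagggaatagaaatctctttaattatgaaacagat
Co-bound Runx3 peak, chr5:132500914-132501204, Auts2 intron 1: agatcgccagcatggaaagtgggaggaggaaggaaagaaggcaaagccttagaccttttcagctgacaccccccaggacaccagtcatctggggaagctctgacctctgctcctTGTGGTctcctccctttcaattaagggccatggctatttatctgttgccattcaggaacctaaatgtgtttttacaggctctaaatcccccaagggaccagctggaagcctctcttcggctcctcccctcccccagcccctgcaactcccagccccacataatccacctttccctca
For contrast, the next is the Runx3 peak of at most 300 bp without Brn3a overlap that had the most RBS, and the one after it the widest Brn3a peak under 300 bp without Runx3 overlap that held TTAATGA.
Runx3-only peak, chr5:131992936-131993050, Auts2 intron 4: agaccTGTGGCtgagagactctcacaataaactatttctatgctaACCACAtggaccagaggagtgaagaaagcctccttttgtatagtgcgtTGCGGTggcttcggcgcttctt
Brn3a-only peak, chr5:131581185-131581449, Auts2 intron 5: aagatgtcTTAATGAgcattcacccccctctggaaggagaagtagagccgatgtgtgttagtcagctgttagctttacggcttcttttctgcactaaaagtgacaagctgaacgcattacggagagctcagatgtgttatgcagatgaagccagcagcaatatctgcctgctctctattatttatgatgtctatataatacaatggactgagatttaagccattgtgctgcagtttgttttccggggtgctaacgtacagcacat
The last, chosen after its values were seen, is the Brn3a peak of the co-bound pair in which a RUNX word and TTAATGA lay nearest to each other.
Co-bound Brn3a peak, chr5:133311365-133311519, intergenic: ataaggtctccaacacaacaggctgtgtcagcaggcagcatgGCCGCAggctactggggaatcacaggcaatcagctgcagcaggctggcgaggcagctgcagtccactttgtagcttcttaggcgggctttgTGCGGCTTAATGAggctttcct
In the last sequence the words adjoin, with centres 6.5 bp apart. Both adjoining words lie outside the overlapping Runx3 peak, chr5:133311376-133311495, whose 1 RBS is the other word in capitals. Neither the first 5 sequences nor the Brn3a peaks that overlapped them held TTAATGA, although V$BRNF was present in each of those Brn3a peaks.

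Auts2 (ENSMUSG00000029673.17) spans chr5:131437333-132543344 on the minus strand, 1106 kb in all. Galnt17 (ENSMUSG00000034040.16) spans chr5:130872082-131308497 on the same strand, 436 kb in all. The Auts2 domain, chr5:131543344-133543344, reached the 1 Mb limit on both sides. The Galnt17 domain, chr5:130389632-132308497, reached that limit upstream and met the window of A330070K13Rik downstream, at 1919 kb. The domains shared 765 kb, all of it inside the Auts2 gene, and together covered 3154 kb.

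The Auts2 domain held 43 Runx3 and 75 Brn3a peaks, of which 27 and 24 were co-bound, meaning that they shared at least 1 bp with a peak of the other list. The Galnt17 domain held 34 and 70, of which 18 and 15 were co-bound. The co-bound shares of the joined domains were 58.0% of Runx3 peaks (29 of 50, Wilson 95% interval 44.2% to 70.6%) and 27.7% of Brn3a peaks (26 of 94, 19.6% to 37.4%). Over all nuclear peaks 32.7% of Runx3 and 25.6% of Brn3a peaks were co-bound, and since the genes were chosen by this count nothing is read from the gap. A co-bound Runx3 peak lay in the domain of 31.8% of all protein-coding genes.

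Most peaks that the rule gives to Galnt17 lay inside Auts2. Of the Galnt17 domain's peaks, 28 of 34 Runx3 peaks, 53 of 70 Brn3a peaks and 16 of 18 co-bound Runx3 peaks had their centre between the ends of the Auts2 gene. The Galnt17 gene itself held 6 Runx3 and 12 Brn3a peaks and 2 co-bound pairs, against 35, 60 and 20 in the Auts2 gene, which is 0.458 and 1.81 co-bound Runx3 peaks per 100 kb. The 129 kb between the genes held 1 Brn3a peak and no Runx3 peak. The 482 kb downstream of Galnt17, which is largely the gene Caln1, held 4 Brn3a peaks and no Runx3 peak. So the stretch that was dense in both factors belonged to Auts2 by position, and no measurement here assigns a region to either gene's promoter.

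**Figure D1:**
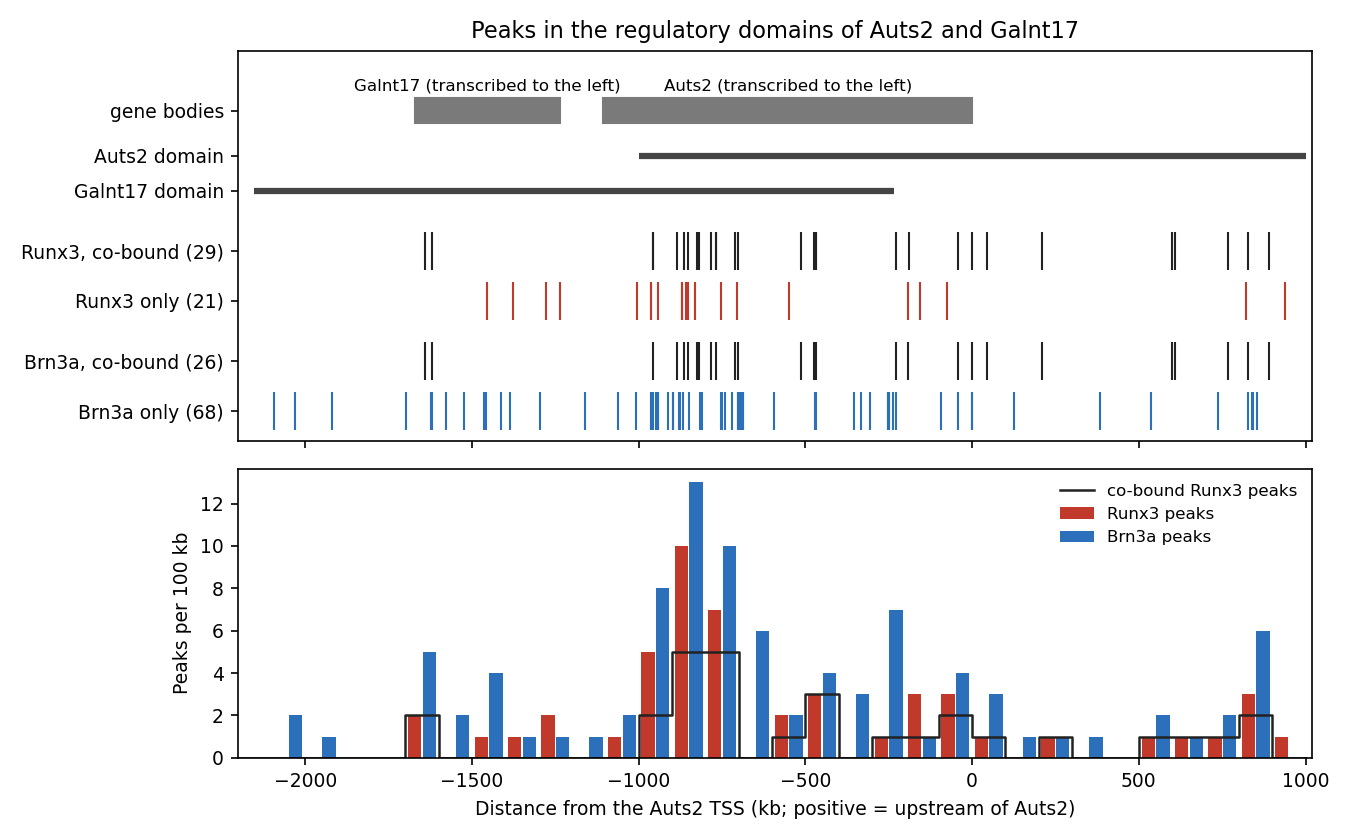
Position of each peak relative to the Auts2 TSS in kb (upper panel, 1 line per peak, co-bound peaks in black) and number of peaks per 100 kb (lower panel; bars for each list, black line for co-bound Runx3 peaks). The bin from 900 to 800 kb downstream of the Auts2 TSS holds the most, with 10 Runx3 and 13 Brn3a peaks, and the 29 co-bound Runx3 peaks are spread from the Galnt17 gene to the far end of the Auts2 domain.

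Within Auts2 the peaks gathered in its long introns, numbered here on the full-length transcript of 19 exons. Intron 5 (237 kb) held 17 Runx3 and 23 Brn3a peaks, with 8 co-bound Runx3 peaks. Intron 4 (260 kb) held 7 and 16, with 4 co-bound Runx3 peaks. Intron 1, the longest at 282 kb, held 6 and 11, with 3 co-bound Runx3 peaks, and intron 2 (209 kb) held 3 and 7, with all 3 Runx3 peaks co-bound. The short intron 3 (19.3 kb) held 1 pair, and intron 6 held 1 Brn3a peak. Introns 7 to 18, at the 3′ end of the gene, held no peak of either list. The densest 300 kb by both lists together, a window chosen after seeing the data, began in intron 5 and ended in intron 4 (first to last peak centre, chr5:131578956-131856507) and held 22 Runx3 and 37 Brn3a peaks, or 7.33 and 12.3 per 100 kb of the window, where chromosomes 1 to 19, X and Y averaged 0.95 and 1.21.

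At the intron 4 end of this window lay a row of Brn3a peaks without Runx3. From chr5:131842181 to 131856622, or 14.4 kb, 7 Brn3a peaks of 209 to 637 bp followed each other with no Runx3 peak among them, and all 7 had V$BRNF. The widest of them, chr5:131851480-131852116, was among the 3 widest Brn3a peaks of the domains. This row was picked out after its values were seen.

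Both genes had a Runx3 peak at their start, but of different kinds. At Auts2, Runx3 (chr5:132543245-132543435) and Brn3a (chr5:132543290-132543435) shared 146 bp at the 5′ end of the gene record, with centres 4 bp and 19 bp from it, and neither RBS nor V$BRNF was present. The sequence was rich in G and C, 75.9% under the Runx3 peak. A second Brn3a peak, chr5:132543473-132543866, lay just upstream and another, chr5:132542298-132542375, in exon 1, both without V$BRNF and without Runx3 overlap. At Galnt17, Runx3 alone was found, in exon 1 at chr5:131307541-131308079, with 2 RBS, 687 bp from the TSS of the gene record and 288 bp upstream of the TSS of the RefSeq record. This was the widest Runx3 peak of both domains, at 539 bp, and the nearest Brn3a peak was 60.5 kb from the TSS. A promoter was counted as bound when a peak centre lay within 1000 bp of an annotated start, which held for Runx3 at 36.5% and for Brn3a at 20.9% of protein-coding genes. The remaining promoter peak of the domains, a Brn3a peak without V$BRNF at chr5:130449030-130449183, lay at a start of Caln1, a gene for a calcium-binding protein of neurons.

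Auts2 also has annotated starts inside the gene. Those at chr5:131538687 and chr5:132449360 had a Runx3 peak (2 RBS, not co-bound) at 1053 bp and a Brn3a peak at 1511 bp, respectively, just beyond the promoter window. The other internal starts that lie beyond exon 1 had no peak centre within 5 kb.

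Upstream of Auts2, the 1000 kb of intergenic DNA held 9 Runx3 and 17 Brn3a peaks. Here 7 of 9 Runx3 peaks (77.8%, 45.3% to 93.7%) were co-bound, against 20 of 35 (57.1%, 40.9% to 72.0%) inside the Auts2 gene, and these intervals overlap. The pair nearest the TSS on this side, chr5:132587041-132587141, was 43.7 kb upstream and had 2 RBS. The widest co-bound Runx3 peak of the domains was also here, 599 kb upstream, a peak of 498 bp (chr5:133142476-133142973) inside a Brn3a peak of 690 bp (chr5:133142375-133143064), V$BRNF present and no RBS. The Runx3 peak with the most RBS of all, 4 in 444 bp (chr5:133482408-133482851), was the outermost, 939 kb upstream, and had no Brn3a overlap.

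The rule's limits were not the limits of the signal. At the upstream end of the Auts2 domain the nearest Runx3 peak lay 60.7 kb inside the edge and the next 36.5 kb outside it, and for Brn3a these distances were 110 kb and 36.6 kb. The nearest peaks outside were co-bound in both lists. At the downstream end of the Galnt17 domain the nearest Runx3 peak was 512 kb inside and 133 kb outside, and the nearest Brn3a peak 59.5 kb inside and 134 kb outside.

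The 29 co-bound Runx3 peaks met 26 Brn3a peaks, because 3 Brn3a peaks each overlapped 2 Runx3 peaks. One of these was the widest Brn3a peak of the domains, 720 bp in Auts2 intron 4 (chr5:131775197-131775916). The centres of a pair were 1 to 279 bp apart, with a median of 27 bp, and 18 of the 29 pairs had centres within 50 bp. The narrower peak lay wholly inside the wider in 20 pairs, and 28 pairs shared at least 50% of the narrower peak. The Brn3a peak was the wider in 24 pairs and the Runx3 peak in 5. The co-bound pair nearest the Galnt17 TSS was in Auts2 intron 5, 277 kb upstream of that TSS (Runx3 peak chr5:131585790-131586032), with no RBS and with V$BRNF. The 2 pairs inside Galnt17, in introns 6 and 7, were 385 kb and 407 kb downstream of its TSS, likewise without RBS and with V$BRNF.

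**Figure D2:**
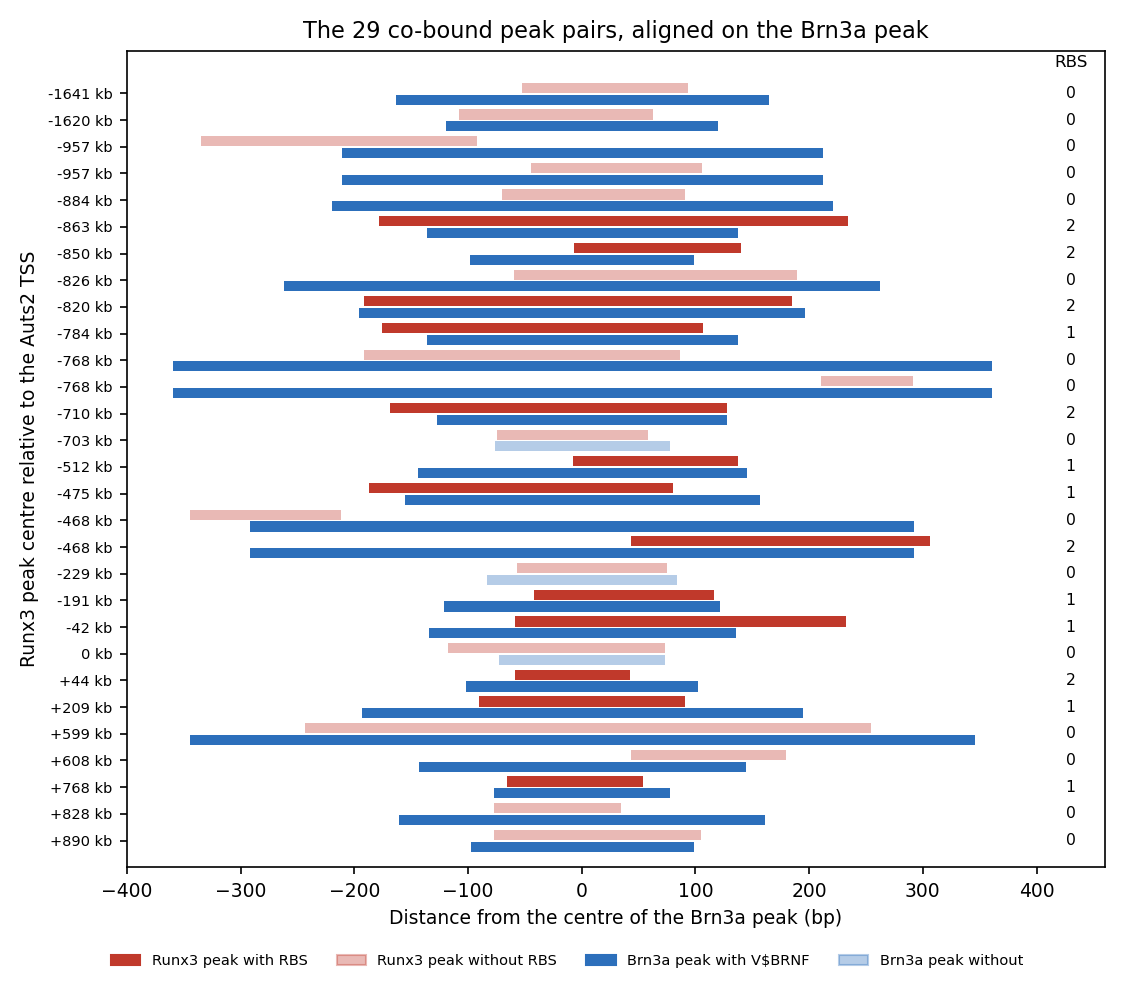
The 29 co-bound pairs, ordered by position from the Galnt17 gene (top) to the far end of the Auts2 domain, with the Brn3a peak (blue) centred at 0 bp and the Runx3 peak (red) drawn to scale; pale bars are peaks without RBS or V$BRNF, and the RBS number stands at the right. In 20 pairs 1 peak lies wholly inside the other, and the Brn3a bar is the longer in 24.

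More pairs had V$BRNF in the Brn3a peak than had an RBS in the Runx3 peak. The measures are unlike, a motif called present against a count of short words. How often V$BRNF occurs outside peaks is not known here. With each motif read in its own factor's peak, as deposited, both were present in 13 of the 29 pairs, V$BRNF alone in 13 and neither in 3, and no pair had an RBS without V$BRNF. The Brn3a peaks were mostly the wider, and in 6 more pairs an RBS word lay in the joined region of both peaks, outside the Runx3 peak. By the joined region 19 pairs had an RBS word, 7 had V$BRNF alone and 3 neither. The 3 pairs with neither motif were the TSS pair and pairs in introns 1 and 4 of Auts2. In the Auts2 domain 13 of 27 pairs had both motifs, and in the Galnt17 domain 8 of 18, all 8 of them in the shared stretch inside Auts2. No co-bound Runx3 peak had more than 2 RBS, and 6 had 2. The 5 of these with most RBS and widest peaks were chr5:131680406-131680818, chr5:131692811-131692957 and chr5:131722898-131723273 in intron 5, chr5:131833204-131833500 in intron 4 and chr5:132075172-132075434 in intron 2, and the first of them was the widest, at 413 bp. Runx3 peaks without Brn3a overlap reached 3 RBS (chr5:131992936-131993050, in intron 4) and 4 RBS, the upstream peak described above.

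Whether motif content differed was tested by Fisher's exact test (two-sided, adjusted by the Benjamini-Hochberg method over 4 tests). The selection of the genes counted peaks and not motifs, but it was made with earlier results of these data known, so the p-values are not independent of it. Of distal Brn3a peaks, meaning those outside promoters, V$BRNF was present in 71 of 90 in the domains (78.9%, 69.4% to 86.0%) and in 16867 of 28050 elsewhere (60.1%, 59.6% to 60.7%), against 60.2% of all distal Brn3a peaks. The odds ratio was 2.48 (95% interval 1.48 to 4.36, exact p = 0.000212, adjusted p = 0.000846). Among the 65 domain peaks that were not co-bound, an alternative added after seeing the data, V$BRNF was present in 48 (73.8%) and the difference from such peaks elsewhere did not pass the threshold (odds ratio 1.93, exact test, adjusted p = 0.0881), and among the 25 co-bound ones the odds ratio was 6.76 (exact test, adjusted p = 0.00615). Whether these odds ratios differ was not tested. Distal Brn3a peaks were wider in the domains than elsewhere, with medians of 221.5 and 170 bp, and V$BRNF was more frequent in wider peaks. Within quartiles of peak width, an alternative chosen after seeing the data, the odds ratio was 2.09 (exact conditional test, adjusted p = 0.0380). In the widest quartile, from 248 bp, V$BRNF was present in 34 of 36 domain peaks (94.4%) and 85.2% elsewhere, and in the second, from 119 to 170 bp, in 11 of 21 (52.4%) and 52.8%. The median GC content was 45.9% in the domains and 48.1% elsewhere, and the part of base composition in the difference was not tested. With the word TTAATGA in place of V$BRNF the difference was not significant (12 of 90, or 13.3%, against 10.6%, odds ratio 1.30, exact p = 0.389, adjusted p = 0.519). The word is a narrower measure than V$BRNF. It was held by 17.4% of distal Brn3a peaks with V$BRNF, and by 12 of the 71 such peaks of the domains. Peaks of 1 locus are neighbours in the same chromatin, and the test treats them as separate.

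**Figure D3:**
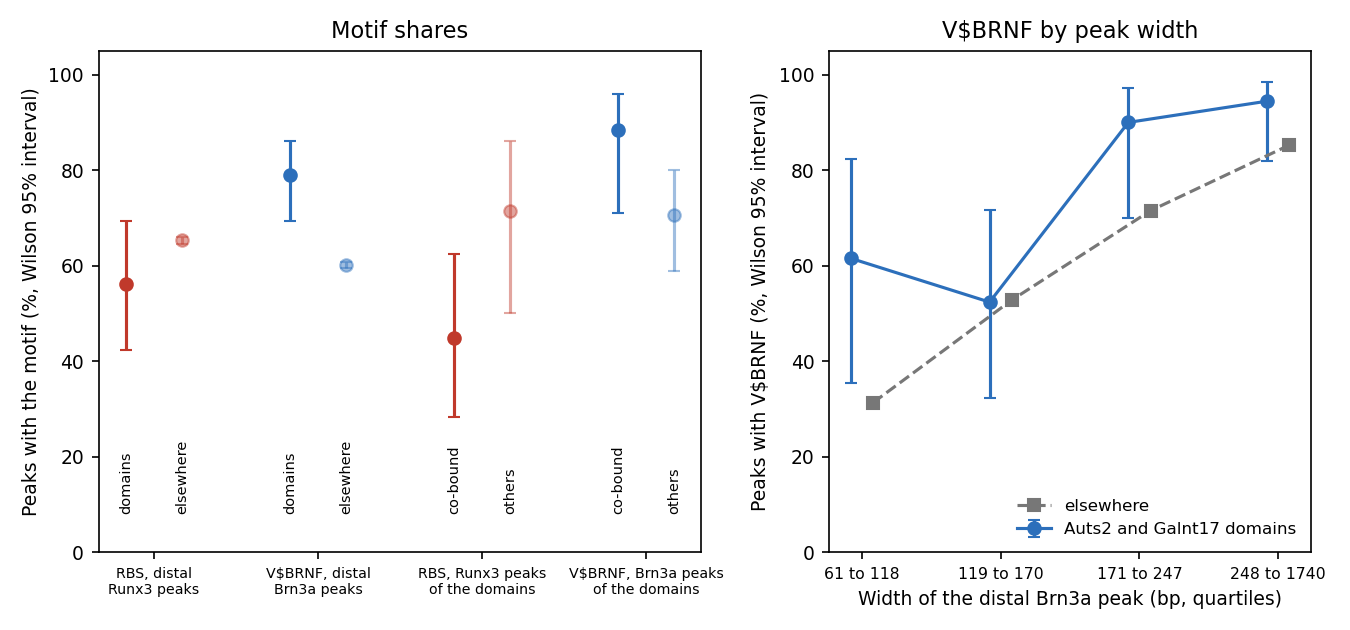
Left, share of peaks with the motif in % with Wilson 95% intervals for the 4 comparisons (red, RBS in Runx3 peaks; blue, V$BRNF in Brn3a peaks; full colour, the group named first). Right, share of distal Brn3a peaks with V$BRNF by quartile of peak width; the domain peaks (points, Wilson 95% intervals) lie above the peaks elsewhere (squares) in 3 of the 4 quartiles and level with them from 119 to 170 bp.

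RBS did not differ detectably in the same comparison. At least 1 RBS was present in 27 of 48 distal Runx3 peaks of the domains (56.2%, 42.3% to 69.3%) and in 11280 of 17270 elsewhere (65.3%, 64.6% to 66.02%; 65.3% also of all distal Runx3 peaks), with an odds ratio of 0.683 (0.371 to 1.27, exact p = 0.224, adjusted p = 0.224). The interval of the odds ratio allows a lower as well as a slightly higher share. Among Runx3 peaks of the domains, RBS was present in 13 of 29 co-bound peaks (44.8%, 28.4% to 62.5%) and in 15 of 21 others (71.4%, 50.0% to 86.2%), an odds ratio of 0.333 (0.0808 to 1.23, exact p = 0.0857, adjusted p = 0.142) that did not pass the threshold of 0.05. Among Brn3a peaks of the domains, V$BRNF was present in 23 of 26 co-bound peaks (88.5%, 71.0% to 96.0%) and in 48 of 68 others (70.6%, 58.9% to 80.1%), an odds ratio of 3.16 (0.811 to 18.3, exact p = 0.107, adjusted p = 0.142). Elsewhere the shares of distal peaks lay in the same order, with RBS in 59.3% of co-bound and 68.3% of other Runx3 peaks and V$BRNF in 63.0% of co-bound and 59.4% of other Brn3a peaks, given here without a test. Promoter peaks count in the co-bound and other shares of the domains and not in those elsewhere. The co-bound Brn3a peaks of the domains were also the wider ones, with a median of 281 bp against 180.5 bp, and the part of width in this comparison was not tested.

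The words themselves were compared with the DNA between the peaks. In 200 bp around the peak centre, an RBS word was found in 62.0% of the 50 Runx3 peaks and 33.0% of the 94 Brn3a peaks of the domains, and in 25.5% of 15529 windows of 200 bp of the same domains that touched no peak. The windows were not matched to the peaks for base composition, and its part in these shares was not tested. Over all nuclear peaks it was found in 60.9% of Runx3 and 33.5% of Brn3a peaks, near the shares of the domains. TTAATGA was found in 11.7% of the Brn3a peaks, 4 of the 50 Runx3 peaks and 3.32% of the windows. Over all nuclear peaks TTAATGA was found in 9.04% of Brn3a and 3.42% of Runx3 peaks. In the domains' Brn3a peaks, an RBS word lay within this window in 14 of 26 co-bound peaks and 17 of 68 others. Among distal Brn3a peaks elsewhere the shares were 50.0% of co-bound and 29.5% of other peaks. A match is a description of the sequence and does not show that a factor used it. A RUNX word and TTAATGA together were found in 2 of 28 distal pairs of the domains and in 479 of 5736 distal pairs elsewhere (8.35%). They adjoined in 1 pair of the domains, the one printed above (Brn3a peak chr5:133311365-133311519, 768 kb upstream of Auts2), and in 7 pairs elsewhere. In the pair of the domains the adjoining words lay in the Brn3a peak but outside the Runx3 peak.

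Few of the peaks lay in repeats. More than 50% of the bases were soft-masked in none of the 50 Runx3 peaks and in 1 of the 94 Brn3a peaks, against 0.585% and 1.62% of distal peaks elsewhere. Exons of the full-length transcripts held 1 Runx3 peak of each gene and 1 Brn3a peak of Auts2, all in exon 1, and every other peak within the 2 genes was in an intron of those transcripts.

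Among the 259 protein-coding genes with a domain of at least 1500 kb, where length alone differs little, the median was 4 Runx3, 12 Brn3a and 2 co-bound Runx3 peaks. The set includes many genes of chromosome Y whose domains held no peak of either list, and they count in these medians. Auts2 had rank 2 for Runx3, rank 2 for Brn3a and rank 1 for co-bound Runx3 peaks. Galnt17 had ranks 4, 3 and 3, and 16 of its 18 co-bound Runx3 peaks are shared with Auts2. Over all 21911 protein-coding genes the ranks, in the same order, were 5, 6 and 3 for Auts2 and 13 (tied), 8 and 6 for Galnt17. By Euclidean distance of the log2(number + 1) of the 3 counts, and among genes whose domain does not overlap the member's, those most like Auts2 were Zfp608 (45 Runx3, 91 Brn3a and 25 co-bound Runx3 peaks, distance 0.303), Sox11 (27, 48 and 16, distance 1.16) and Sox4 (23, 47 and 11, distance 1.64). Those most like Galnt17 were Sox11 (distance 0.645), Zfp608 (0.707) and Sox4 (1.03). The distance between Auts2 and Galnt17, whose domains share peaks, was 0.657. Zfp608 encodes a zinc-finger protein, and Sox4 and Sox11 are SOX-family TFs.

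**Figure D4:**
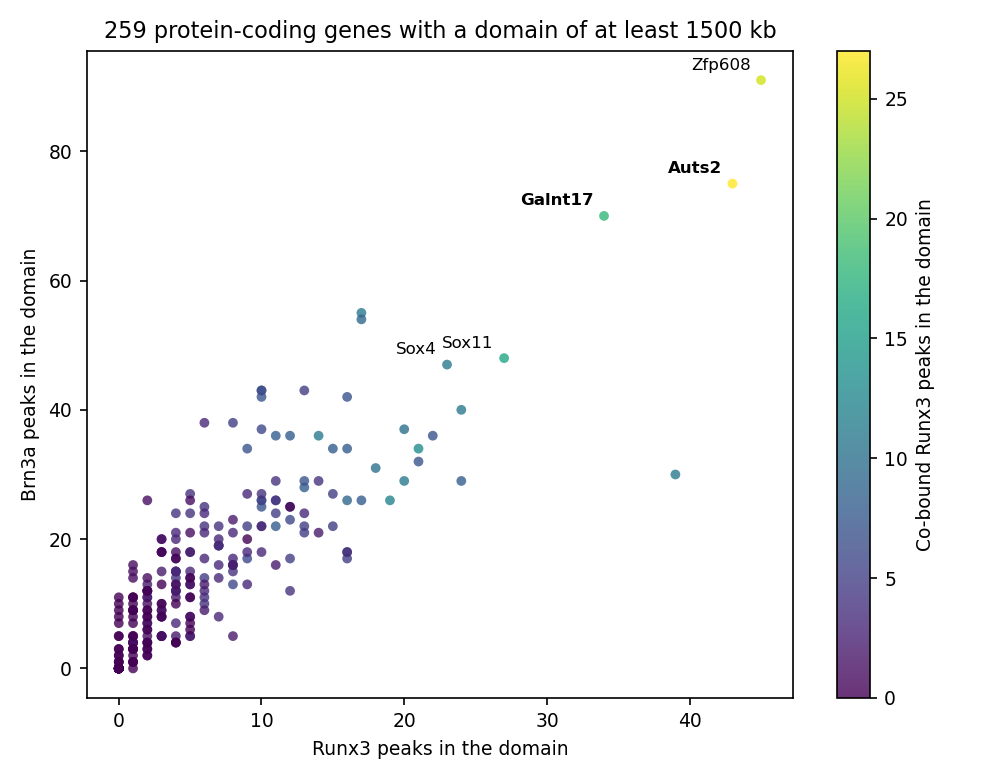
Number of Runx3 peaks (x axis) and Brn3a peaks (y axis) in the domain of each of 259 protein-coding genes with a domain of at least 1500 kb, coloured by the number of co-bound Runx3 peaks. Zfp608 (45 and 91), Auts2 (43 and 75) and Galnt17 (34 and 70) have the most Brn3a peaks, and Auts2 and Galnt17 share part of theirs.

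The families of the genes were then looked up from fixed lists. Of 13 genes for AUTS2, its paralogs and its partner complex, 11 had a Runx3 and 7 a Brn3a peak in the domain and 6 a co-bound Runx3 peak, against 62.9%, 57.5% and 31.8% of all protein-coding genes, with medians of 1, 1 and 0 in the list and over all genes. The median domain was 133 kb in the list and 89.6 kb over all protein-coding genes. The 13 include Auts2 itself, which was chosen for its peak numbers and counts in each of these figures. Promoter peaks were found at 7 of the 13 for Runx3 and 6 for Brn3a, against 36.5% and 20.9% of all protein-coding genes. After Auts2 the most were at Rybp, a subunit of variant Polycomb complexes (17 Runx3, 26 Brn3a and 7 co-bound Runx3 peaks in 939 kb), and at the paralog Fbrsl1 (9, 8 and 5 in 191 kb). The paralog Fbrs had 4, 2 and 2 in 46.4 kb, with promoter peaks of both factors. Pcgf5, the Polycomb subunit that AUTS2 is known to join, had 4 Runx3 peaks and no Brn3a peak.

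Of 19 polypeptide GalNAc-transferases, 17 had a Runx3 peak, 17 a Brn3a peak and 14 a co-bound Runx3 peak in the domain (62.9%, 57.5% and 31.8% of all protein-coding genes). The medians were 3, 4 and 1 over a median domain of 339 kb, against 89.6 kb over all protein-coding genes. Promoter peaks were found at 4 of 19 for Runx3 and 1 of 19 for Brn3a, where all protein-coding genes had 36.5% and 20.9%. After Galnt17 the most Runx3 peaks were at Galnt2 (15 Runx3 and 21 Brn3a, 5 of the Runx3 peaks co-bound) and Galnt10 (12 and 10, 3 co-bound), and the most Brn3a peaks at Galnt2 and Galnt3 (17 Brn3a and 5 Runx3, 4 co-bound). The 19 include Galnt17 itself, which was chosen for its peak numbers. These lists were not tested, because they were made with results of these data known.

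On the far sides, the protein-coding genes with the next TSS had fewer peaks, but in shorter domains than the 2000 kb of Auts2 and the 1919 kb of Galnt17. Of the Runx3 peaks 11 of 16 were co-bound at Castor2, against 27 of 43 at Auts2 and 18 of 34 at Galnt17. Castor2, a gene of the CASTOR family of mTORC1 regulators and the neighbour upstream of Auts2, had 16 Runx3, 31 Brn3a and 11 co-bound Runx3 peaks in 1076 kb. A330070K13Rik, which lies within Caln1 and has the next TSS downstream of Galnt17, had 5, 16 and 2 in 937 kb. The domain of Castor2 and that of Auts2 reach into the same intergenic DNA, so a peak between them can be counted for both.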

How the data were processed

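CUT&RUN of E12.5 DRG TrkC neurons was processed by the submitters with cutadapt, Bowtie and MACS2, according to their processing notes, on the assembly named GRCm38 or mm10. Their versions and settings are not given in the sources used here. Deposited was 1 consensus list for each antibody, and its header line says that a peak had to be present in 2 or more of 3 Runx3 or of 4 Brn3a libraries. The deposited Runx3 table gives a count of RBS per peak, and the deposited Brn3a table the presence of V$BRNF. The deposited table for H3K27Ac was identical to the Runx3 table and was not used. Serum data were not analysed here.

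Positions, which the words showed to be 1-based, were compared with GRCm38 and GENCODE M21 genes in Python 3.11.15 (numpy 2.4.6, pandas 2.3.3, scipy 1.17.1, pysam 0.24.0, matplotlib 3.10.9), and the code was tested on simulated data. A TSS was the 5′ end of a gene record or of a protein-coding transcript. Mitochondrial peaks were left out. Distal peaks lay over 1000 bp from any TSS. A shared stretch of 1 bp or more made peaks co-bound. Fisher's exact test, two-sided, compared motif shares, with Benjamini-Hochberg adjustment over 4 tests. The peak is the unit, so p-values do not measure the spread between libraries.

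The genes, the lists and the tests were chosen with earlier results of these data known. The peaks named were all promoter peaks, the co-bound pair nearest each TSS, the 5 co-bound pairs with most RBS, the 3 widest peaks of each list and the 3 Runx3-only peaks with most RBS, and others are named where the text singles them out. Of the 5 genes most like each member the nearest 3 are named, and the rest is not reported here. Alternatives changed the domain, the overlap, the motif, the window and the peak width.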

Additional observations from a re-analysis of the deposited data

How the results depend on the processing

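The higher share of V$BRNF in distal Brn3a peaks of the domains kept its direction in all 10 alternatives and its significance in 7, where the odds ratio was 2.09 to 6.76. Significance was lost with the word TTAATGA, a narrower measure held by 17.4% of distal Brn3a peaks with V$BRNF. The odds ratio was 1.30 for the word in the peak. For the word in 200 bp around the centre, an alternative added after seeing the data, it was 1.23. Significance was also lost among peaks that were not co-bound (1.93, Fisher's exact test, adjusted p = 0.0881), also added afterwards, and the cause was not tested. Among co-bound peaks alone the odds ratio was 6.76 (exact test, adjusted p = 0.00615). For Auts2 alone it was 2.75 and for Galnt17 alone 2.19, and these are not separate results. Of the 70 Brn3a peaks of the Galnt17 domain, 51 lay in the stretch shared with Auts2. In the rest of that domain V$BRNF was present in 13 of 19, promoter peaks included (68.4%, 46.0% to 84.6%). Each setting left the other gene's unshared peaks in the comparison group. The settings for 1 gene, for co-bound peaks and within width quartiles were added after seeing the data. The other 3 comparisons kept their direction and stayed short of the threshold in all their alternatives. Keeping only peaks at least as wide as the median of their list left 21 Runx3, 57 Brn3a and 13 co-bound Runx3 peaks, since that choice removes peaks. An extension of at most 500 kb left 21 co-bound Runx3 peaks, the gene bodies with 5 kb on each side 22, and an overlap of at least 50% of the narrower peak 28. No paired analysis was possible because the consensus lists hold no values per library, and for the same reason no library could be left out in turn.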
